A study of Homo sapiens with 6 samples.

Results

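The genes described here are the aminoacyl-tRNA synthetases, the enzymes that join each amino acid to its tRNA, together with the 3 scaffold proteins of the multi-tRNA synthetase complex. Members were chosen by gene symbol alone, as a letter followed by ARS with or without 1, 2 or 3, plus EPRS1, FARSA, FARSB, AIMP1, AIMP2 and EEF1E1, and 41 of the 59653 genes of the table met this rule. Of these, 21 encode enzymes of the cytosol, 17 carry the suffix 2 and encode mitochondrial enzymes, and 3 (AIMP1, AIMP2 and EEF1E1) are scaffolds. GARS1 and KARS1 each supply both compartments and were counted with the cytosolic enzymes. RNA was sequenced from SK-OV3, a line grown from a human ovarian cancer and labelled as wildtype, 48 h after transfection with pooled siRNAs against the long non-coding RNA PVT1 (siPVT1) or with a pool of scrambled, non-targeting siRNAs (siControl), in 3 libraries each. All libraries came from 1 cell line and each group received 1 siRNA pool, so that effects of lowering PVT1 and other effects of the pool cannot be told apart. The labels do not say whether replicates came from separate cultures, so p-values measure the spread between these libraries, which may be technical. In bulk RNA, fewer cells of a type and less RNA per cell cannot be told apart.

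Each synthetase recognises 1 amino acid and its tRNAs, and cells keep separate sets of these enzymes for the ribosomes of the cytosol and for those of the mitochondrion, nearly all encoded in the nucleus by different genes. In the cytosol a group of them is held in a large complex by AIMP1, AIMP2 and EEF1E1. Many genes for cytosolic synthetases belong to the programme that ATF4, the transcription factor of the amino acid response, controls, and tRNA charging is read by the kinase GCN2 (EIF2AK4) as a measure of amino acid supply.

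Total counts ranged from 28383171 to 35059576 per library, and all 41 genes passed the filter of at least 5 normalised counts in at least 3 libraries that left 19008 genes for testing. Values by library are given in replicate order, 1 to 3, and each adjusted p comes from the quasi-likelihood test of edgeR, corrected by Benjamini-Hochberg over all tested genes. PVT1, the target, had normalised counts of 3280.2, 4178 and 3374 with siControl against 2334, 2111 and 2047 with siPVT1, without overlap (log2 fold change −0.74, standard error 0.102, adjusted p = 0.000465). Of 11 markers of ovarian cancer cells, keratins KRT7, KRT8 and KRT18, PAX8 and ERBB2 were abundant, while the epithelial adhesion genes CDH1 and EPCAM were low. The others had siControl means between those of CDH1 (27.2) and ERBB2 (1254). At an adjusted p under 0.05, 5 of the 11 rose, 3 fell and 3 did not pass, beside 29.2% of all tested genes in each direction. Past both thresholds 2 rose and 1 fell, beside 11.6% and 9.86% of all tested genes. Of 12 markers of other cell types, 4 rose past both thresholds (CDH5, PECAM1, VWF and COL1A1) and 1 fell past both (CD14, at low counts), beside the same 11.6% and 9.86%. A further 3 were tested and did not pass, and the others were too low to test. The summed normalised counts of the 12 were 3611 to 3691 in siControl and 10203 to 13161 in siPVT1. Most of this rise was CDH5, whose mean went from 2008 with siControl to 9271 with siPVT1. CD3E was at 0 in every library and PTPRC and DCN were at or near 0. The part of the rise in the results below was not tested. Mitochondrially encoded genes took 5.26% to 5.81% of counts in siControl and 5.75% to 7.0% in siPVT1. The libraries labelled siPVT1 were not alike: for 50.4% of all tested genes, and for 30 of the 41 genes described here, replicate 3 was the siPVT1 library nearest to the siControl mean.

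Most of the family was lower in siPVT1. At an adjusted p under 0.05, 29 of the 41 genes fell, 5 rose and 7 did not pass, where 29.2% of all tested genes fell and 29.2% rose. A comparison added after the data were seen took the 10223 tested genes with a mean count at least that of FARS2, the lowest member, and of these 35.7% fell, 35.0% rose and 70.7% passed in either direction. The family thus had a larger share of falls and a smaller share of rises than genes of such counts. The falls were mostly of moderate size. The median log2 fold change over the 41 genes was −0.47, against −0.01 over all tested genes, and 3 genes, FARSB, MARS2 and AIMP2, also reached a log2 fold change of 1 in size (9.86% of all tested genes were lower past both thresholds and 11.6% higher, and 6.24% and 8.36% of those with counts from FARS2 upwards). No member was higher past both thresholds. In 31 genes all siPVT1 libraries lay below all siControl libraries and in 6 all lay above, where 33.5% and 32.8% of all tested genes did so, and 39.1% and 38.0% of those with counts from FARS2 upwards. Without siPVT1 replicate 3, 31 genes fell and 6 rose, and 5 fell past both thresholds.

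**Figure D1:**
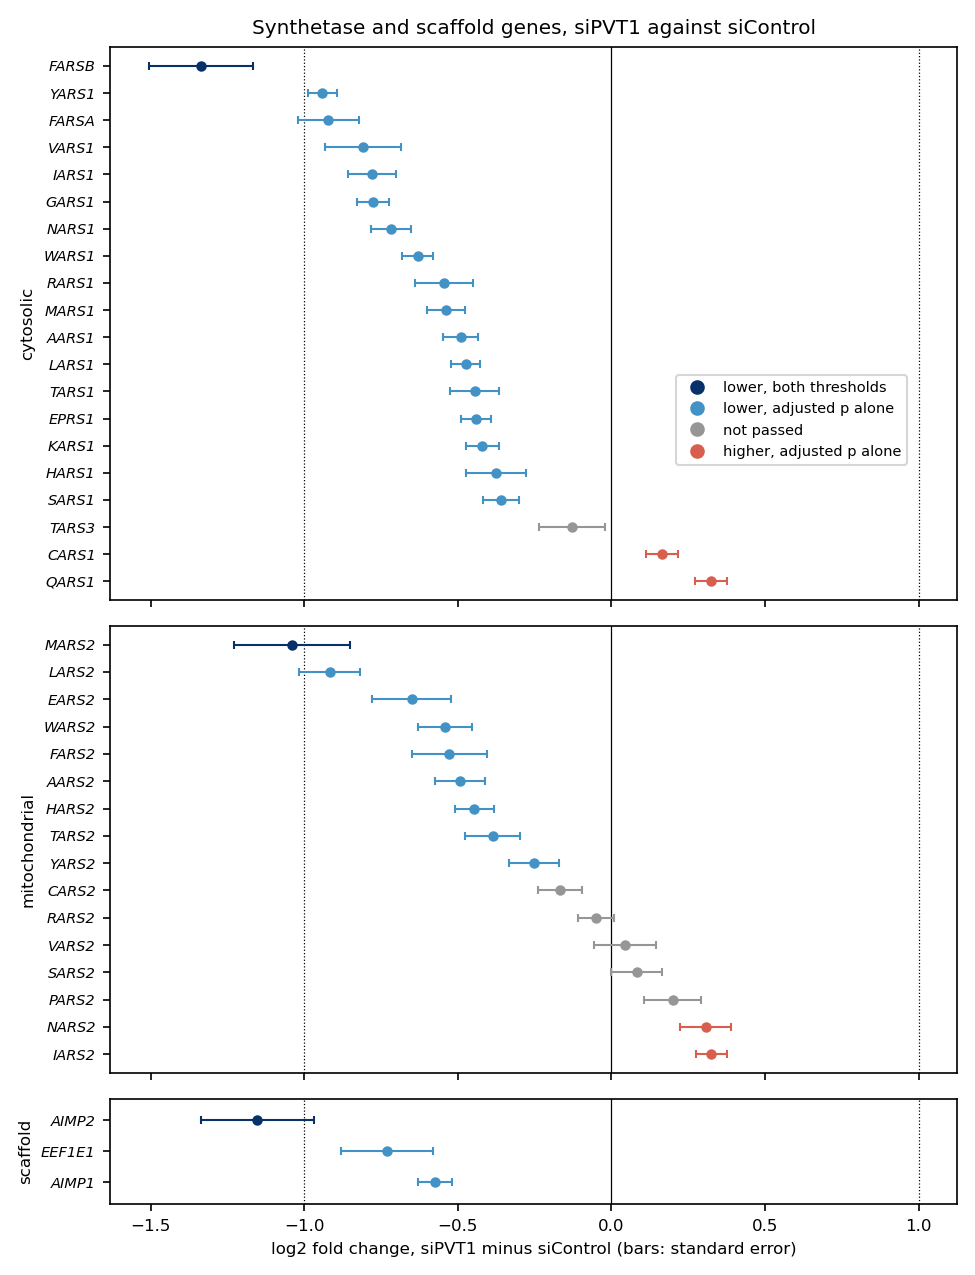
Log2 fold change of 39 of the genes, siPVT1 minus siControl, with bars for the standard error, in 3 panels for cytosolic, mitochondrial and scaffold genes. Colours give the call, dotted lines the log2 fold threshold of 1, and 29 points lie at lower values with an adjusted p under 0.05 against 4 at higher values.

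Of the 21 cytosolic enzymes, 17 fell, 3 rose and 1 (TARS3) did not pass, with a median log2 fold change of −0.49 and a lowest value of −1.34. Of all tested genes 29.2% fell and 29.2% rose, and of those with counts from FARS2 upwards 35.7% and 35.0%. FARSB and FARSA encode the β and α subunits of phenylalanyl-tRNA synthetase, which works only as an assembly of both. FARSB, on chromosome 2 from 222566899 to 222656092 on the minus strand in GRCh38, fell the most of the 41 genes, and it is described, with MARS2 below, because of its values. Its normalised counts were 4182, 4071 and 4131 with siControl against 1284, 1463 and 2150.2 with siPVT1 (log2 fold change −1.34, standard error 0.170, adjusted p = 0.000287). FARSA had 1676, 1606 and 1790.2 with siControl against 829.7, 817 and 1028 with siPVT1 (log2 fold change −0.92, standard error 0.10, adjusted p = 0.000124). The ratio of FARSB to FARSA per kilobase was 0.655 ± 0.032 with siControl and 0.485 ± 0.073 with siPVT1 (SD, n = 3 each), without overlap. Since FARSB was described because it fell the most, a lower ratio was to be looked for, and the difference between the subunits was not tested. For both subunits siPVT1 replicate 3 stood nearest to siControl.

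The fall with the smallest p-value was that of YARS1, the tyrosyl-tRNA synthetase. Its normalised counts were 7370.3, 7286 and 7358 with siControl against 3773, 3825 and 3866 with siPVT1, and its libraries hardly varied within a group (log2 fold change −0.94, standard error 0.047, adjusted p = 3.34e-06). GARS1, the glycyl-tRNA synthetase that serves cytosol and mitochondrion from 1 gene, was among the most abundant of the family and had normalised counts of 13185, 12862 and 13065 with siControl against 7291, 7828 and 7736 with siPVT1 (log2 fold change −0.78, standard error 0.051, adjusted p = 1.14e-05). KARS1, the lysyl-tRNA synthetase and the other enzyme of both compartments, fell less (log2 fold change −0.42, standard error 0.054, adjusted p = 0.000305), and its siPVT1 mean was 74.7% of the siControl mean against 58.4% for GARS1.

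WARS1, the tryptophanyl-tRNA synthetase, is known in other settings as a gene induced by interferon γ. Here it had 8267, 8130.3 and 8040.4 with siControl against 5214, 5471 and 5100.3 with siPVT1, below siControl in every siPVT1 library (log2 fold change −0.63, standard error 0.051, adjusted p = 2.95e-05). NARS1, which charges asparagine, had 5344, 5195 and 5698 with siControl against 3083, 3329 and 3471 with siPVT1 (log2 fold change −0.72, standard error 0.065, adjusted p = 5.3e-05). VARS1 (valine), AARS1 (alanine), TARS1 (threonine), HARS1 (histidine) and SARS1 (serine) also fell, with log2 fold changes of −0.81, −0.49, −0.44, −0.37 and −0.36 in this order. TARS3, a second threonyl enzyme of the cytosol that is close in sequence to TARS1, was much less abundant and its groups overlapped, with 358, 305 and 294 with siControl against 311, 296 and 270.4 with siPVT1 (log2 fold change −0.13, standard error 0.107, adjusted p = 0.338). Outside the complex, 11 of 13 cytosolic genes fell and CARS1, the cysteinyl enzyme, was the 1 that rose. Of all tested genes 29.2% fell and 29.2% rose, and of those with counts from FARS2 upwards 35.7% and 35.0%. CARS1 had 3513, 3499 and 3640.5 with siControl against 4005, 4104 and 3835 with siPVT1 (log2 fold change 0.16, standard error 0.053, adjusted p = 0.0276), a call that was lost without siControl replicate 1 (adjusted p = 0.13), 2 (0.10) or 3 (0.0788) and without siPVT1 replicate 2 (0.0929).

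The complex holds 8 of the cytosolic enzymes, and in siPVT1 its parts did not move together. IARS1, LARS1, MARS1, RARS1, KARS1 and EPRS1 fell, while QARS1 rose, where 29.2% of all tested genes fell and 29.2% rose. IARS1, the isoleucyl enzyme, had 19025, 18629.5 and 18405 with siControl against 9751, 10849 and 12059.8 with siPVT1 (log2 fold change −0.78, standard error 0.078, adjusted p = 8.42e-05). LARS1, which charges leucine and is known as a leucine sensor for mTORC1, had 10190.1, 10007 and 10152 with siControl against 7113, 7422 and 7306 with siPVT1 (log2 fold change −0.47, standard error 0.047, adjusted p = 8.18e-05). EPRS1, which carries the glutamyl and the prolyl enzyme in 1 protein, had 10531, 10025 and 10491 with siControl against 7508, 7683 and 7709 with siPVT1 (log2 fold change −0.44, standard error 0.049, adjusted p = 0.000145). All 3 were lower in every siPVT1 library, and RARS1 (arginine) and MARS1 (methionine) both had a log2 fold change of −0.54. The 8 enzymes of the complex had a median of −0.46, against −0.63 for the 13 outside it.

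QARS1 charges glutamine. It had normalised counts of 3091, 3055 and 3174 with siControl against 4004, 3920.1 and 3746 with siPVT1 (log2 fold change 0.32, standard error 0.053, adjusted p = 0.00108). All siPVT1 libraries lay above all siControl libraries. Between partners in the complex the balance of transcripts therefore differed between the groups. The ratio of QARS1 to RARS1 per kilobase was 0.448 ± 0.015 with siControl and 0.830 ± 0.128 with siPVT1 (SD, n = 3 each), with no overlap between groups. This ratio was chosen after the values were seen and does not depend on how libraries were scaled.

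All 3 scaffold genes fell, where 29.2% of all tested genes did, and 35.7% of those with counts from FARS2 upwards. AIMP2, on chromosome 7 from 6009255 to 6023834 on the plus strand, encodes the scaffold at the core of the complex and had 1517, 1465 and 1559 with siControl against 510.0, 619 and 908 with siPVT1 (log2 fold change −1.15, standard error 0.184, adjusted p = 0.00098). EEF1E1, also known as AIMP3, which binds the methionyl enzyme, had 1043, 929 and 1035 with siControl against 475, 589 and 746 with siPVT1 (log2 fold change −0.73, standard error 0.151, adjusted p = 0.00367). AIMP1, which also exists as a secreted cytokine, had 2252, 2162 and 2260.0 with siControl against 1530.0, 1451 and 1506 with siPVT1 (log2 fold change −0.57, standard error 0.055, adjusted p = 6.87e-05). AIMP1 was alike in the 3 siPVT1 libraries, whereas AIMP2 and EEF1E1 were highest in replicate 3, and without siPVT1 replicate 1 the log2 fold change of AIMP2 was −0.98, short of the fold threshold. Per kilobase, the ratio of AIMP2 to AIMP1 was 1.57 ± 0.019 with siControl and 1.05 ± 0.317 with siPVT1 (SD, n = 3 each), lower in every siPVT1 library. By library it was 0.77, 0.99 and 1.40 with siPVT1. AIMP2 fell the most of the scaffolds, so a lower ratio was to be looked for, and the difference was not tested. Groups overlapped for the ratio of EEF1E1 to AIMP1 (1.19 ± 0.048 and 1.07 ± 0.245) and for that of EEF1E1 to MARS1 (0.394 ± 0.021 and 0.343 ± 0.060, SD, n = 3 each).

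**Figure D2:**
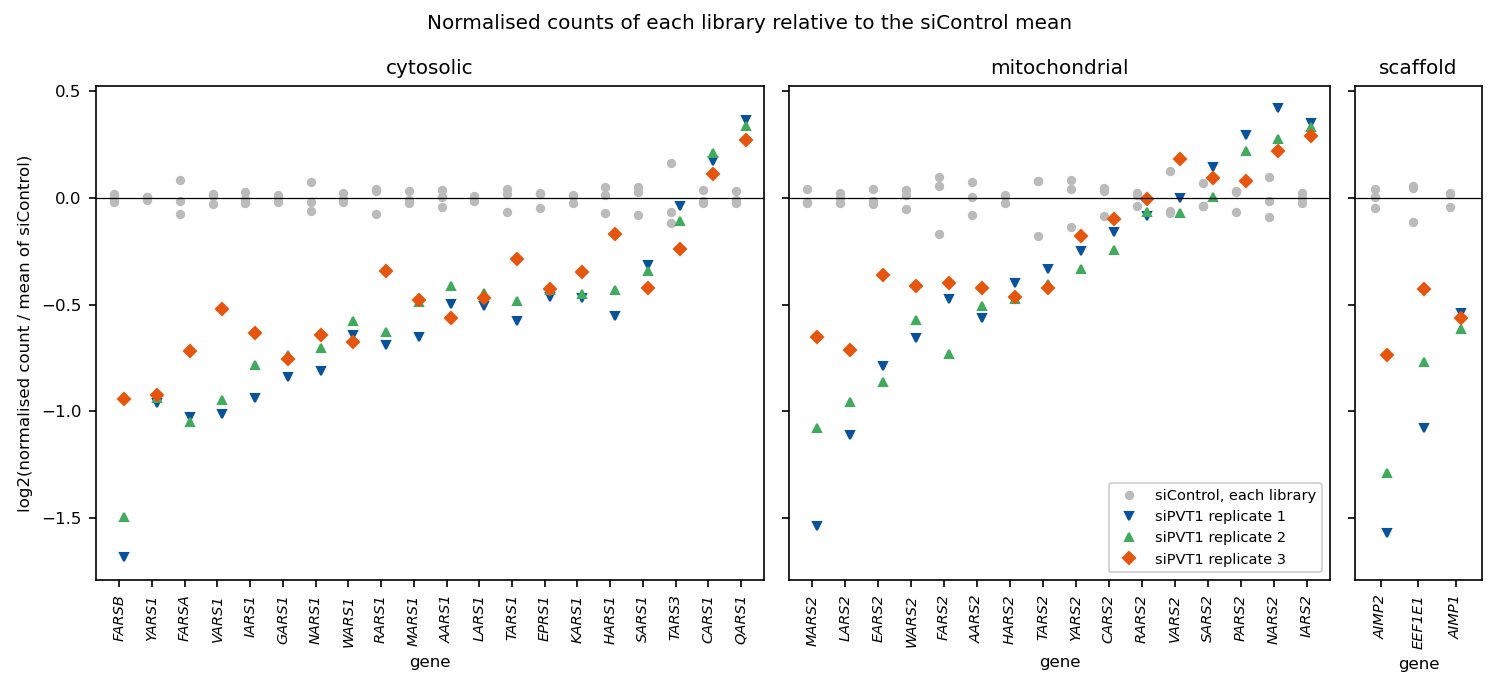
Normalised count of 39 of the genes in each library as log2 of its ratio to the siControl mean, with siControl libraries in grey and the 3 siPVT1 libraries as separate symbols. siPVT1 replicate 3 (orange) lies nearest to siControl in 28 of the 39 genes.

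Of the 17 mitochondrial enzymes, 9 fell, 2 rose and 6 did not pass, with a median log2 fold change of −0.35 and a range from −1.04 to 0.32. Of tested genes with counts from FARS2 upwards, 35.7% fell, 35.0% rose and 70.7% passed in either direction. In this fit the mitochondrial set did not pass more often than these genes. Without siPVT1 replicate 3, 11 of the 17 fell and 3 rose, and with scaling by the total count 12 fell and 1 rose. The share of other genes that passed in those settings is not given here. MARS2, the mitochondrial methionyl enzyme, is encoded by a gene of 1 exon on chromosome 2 from 197705369 to 197708395 on the plus strand. It had 685, 717 and 687 with siControl against 240.1, 330.0 and 443 with siPVT1 (log2 fold change −1.04, standard error 0.189, adjusted p = 0.00196), and without siPVT1 replicate 1 its log2 fold change was −0.84, so that its place past the fold threshold rests on that library. LARS2, the leucyl enzyme, had 1768, 1711 and 1739.5 with siControl against 804, 895 and 1061 with siPVT1 (log2 fold change −0.92, standard error 0.099, adjusted p = 0.000124). Neither gene overlapped between the groups.

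HARS2 and HARS1 are neighbours on chromosome 5 on opposite strands, with overlapping exons, HARS2 from 140691430 to 140699305 and HARS1 from 140673035 to 140691537. HARS2 had 955, 935 and 959 with siControl against 720.2, 684 and 687 with siPVT1 (log2 fold change −0.45, standard error 0.062, adjusted p = 0.000481), and HARS1 fell by a like amount (log2 fold change −0.37, standard error 0.098, adjusted p = 0.0117). WARS2 had 515, 524 and 493 with siControl against 324, 343 and 383 with siPVT1 (log2 fold change −0.54, standard error 0.088, adjusted p = 0.00105), and AARS2 had 527, 497 and 553 with siControl against 356, 370.5 and 393 with siPVT1 (log2 fold change −0.49, standard error 0.081, adjusted p = 0.00114). EARS2, FARS2, TARS2 and YARS2 made up the rest of those that fell, at log2 fold changes of −0.65, −0.53, −0.39 and −0.25, and the call of YARS2 was lost without siControl replicate 1 (adjusted p = 0.0922) or 3 (0.105) and without siPVT1 replicate 2 (0.11).

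IARS2 and NARS2 rose. IARS2, the isoleucyl enzyme of the mitochondrion, had 2934, 2836 and 2884 with siControl against 3685, 3629 and 3525 with siPVT1 (log2 fold change 0.32, standard error 0.051, adjusted p = 0.000859). NARS2, the asparaginyl enzyme, had 776, 682 and 718 with siControl against 970.2, 879.8 and 844 with siPVT1 (log2 fold change 0.31, standard error 0.083, adjusted p = 0.0132), and its call was lost without siControl replicate 2 (adjusted p = 0.0621) or 3 (0.0599). Each siPVT1 library was above each siControl library in both genes.

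Mitochondrial genes that did not pass included CARS2, RARS2, VARS2, SARS2 and PARS2. VARS2 had the smallest difference, with 373, 376 and 428 with siControl against 393, 374 and 446 with siPVT1 (log2 fold change 0.04, standard error 0.101, adjusted p = 0.736), and its groups overlapped. PARS2, at a log2 fold change of 0.20 over all libraries, passed as higher without siPVT1 replicate 3 (0.27, adjusted p = 0.0268). CARS2, RARS2 and SARS2 had log2 fold changes of −0.17, −0.05 and 0.08. Synthetases fall into 2 structural classes with unrelated catalytic folds. In the mitochondrial set 5 of 9 enzymes of class I and 4 of 8 of class II fell, and in the cytosolic set 7 of 9 and 9 of 11, with EPRS1, which holds an enzyme of each class, in neither count. Of tested genes with counts from FARS2 upwards, 35.7% fell.

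For most amino acids the cytosolic and the mitochondrial enzyme can be set side by side within a library, as a ratio that no scaling between libraries touches. In 18 such pairs the log2 ratio of cytosolic to mitochondrial normalised counts was lower in all siPVT1 libraries for 9, higher for 4 and overlapping for 5. Among all tested single genes 33.5% lay lower and 32.8% higher without overlap, and 39.1% and 38.0% of those with counts from FARS2 upwards. No such share was computed for ratios. FARS2 and EPRS1 each recur across pairs, so the pairs are not independent. The two-sided exact permutation test of 3 libraries against 3 cannot go below p = 0.1, which all 13 pairs without overlap reached (adjusted p = 0.138 over the 18 pairs), so that no pair could pass. Both enzymes of a pair fell in 10 of the 18, and FARS2 is counted more than once among them. Of all tested single genes 29.2% fell, and 35.7% of those with counts from FARS2 upwards. No share was computed for pairs of genes that both fell.

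The largest difference was that of isoleucine, in which IARS1 fell and IARS2 rose, with log2 ratios of 2.7, 2.72 and 2.67 with siControl against 1.40, 1.58 and 1.77 with siPVT1, a difference of −1.11. Asparagine, with NARS1 and NARS2, gave log2 ratios of 2.78, 2.93 and 2.99 with siControl against 1.67, 1.92 and 2.04 with siPVT1, a difference of −1.02. Valine (−0.87), phenylalanine by its β subunit (FARSB to FARS2, −0.84) and tyrosine (−0.69) followed in the same direction. The other 4 pairs with lower ratios were EPRS1 to PARS2 (−0.64), arginine (−0.50), serine (−0.44) and FARSA to FARS2 (−0.40). The opposite was seen for methionine, leucine and cysteine, at differences of 0.55, 0.45 and 0.33. Alanine, histidine, threonine and tryptophan enzymes overlapped, as did EPRS1 to EARS2 (0.23), and the difference for alanine was 0.0029.

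**Figure D3:**
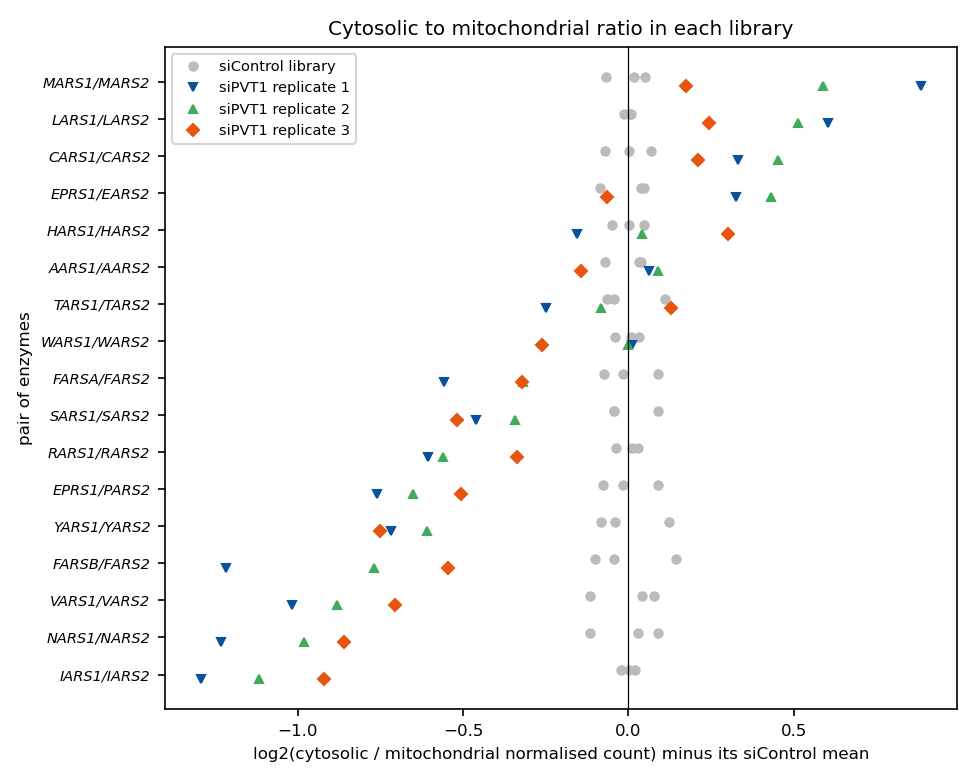
Log2 ratio of cytosolic to mitochondrial normalised count in each library for 17 pairs of enzymes, each shown relative to its siControl mean. In 9 pairs all siPVT1 symbols lie to the left of all siControl points, and in 3 all lie to the right.

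Levels of different genes were compared per kilobase of the canonical transcript, as counts per 1000000 after TMM scaling, so they depend on which transcript the cells use. In siControl the cytosolic enzymes were the more abundant set, led by TARS1 at 199.7 ± 7.72, GARS1 at 172 ± 2.15 and IARS1 at 134 ± 2.25 (SD, n = 3 each), whereas the most abundant mitochondrial enzyme, IARS2, stood at 26.2 ± 0.442. TARS3 was the lowest of all at 2.95 ± 0.314, and near it PARS2 (3.5 ± 0.136), AARS2 (3.52 ± 0.186) and VARS2 (3.52 ± 0.279) did not differ from each other beyond their spread. In siPVT1, IARS2 rose to 32.9 ± 0.742 and IARS1 fell to 78.0 ± 8.27. Summed over the set, cytosolic enzymes went from 1627 ± 36.6 to 1155 ± 45.0 on this scale (SD, n = 3 each), 71.0% of siControl. Mitochondrial enzymes went from 179.6 ± 3.81 to 158.8 ± 7.05, 88.4% of siControl, and scaffolds from 97.1 ± 3.75 to 54.0 ± 9.62, 55.6% of siControl.

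**Figure D4:**
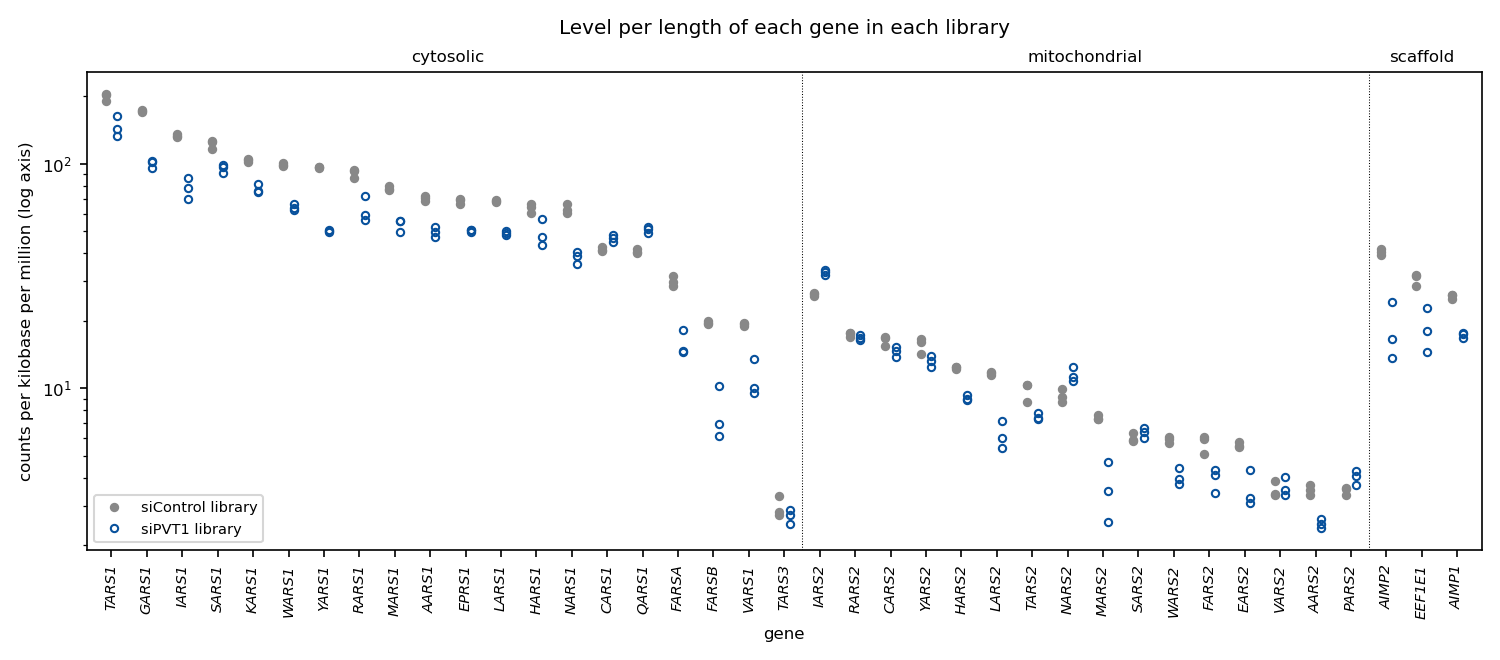
Counts per kilobase of canonical transcript per 1000000 counts in each library for 39 of the genes, on a log axis, with genes ordered by their siControl mean within each set. Cytosolic genes reach 199.7 (TARS1) in siControl, and the highest mitochondrial gene, IARS2, stands at 26.2.

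Promoter sequence, from 250 bases before to 50 after the gene start in RefSeq on GRCh38.p14, was at hand for 33 of the 41 genes, and is shown because many cytosolic members fell together with ATF4. It was searched on both strands for TGATGNAAN, the composite element that ATF4 and C/EBP factors bind, and 7 of 16 cytosolic genes, 1 of 14 mitochondrial genes and 0 of 3 scaffold genes held it, against 4.45% of all genes in the promoter table. The 7 cytosolic matches are shown in windows of the gene's own strand, 5′ to 3′, and the capitals mark the match, which reads TGATGNAAN in NARS1 and as its reverse complement in the other 6.
TARS1 (chr5:33440956-33440985, plus strand): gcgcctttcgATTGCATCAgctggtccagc
GARS1 (chr7:30594834-30594863, plus strand): ttacgcggcgATTTCATCAtgctccgagcc
IARS1 (chr9:92293692-92293721, minus strand): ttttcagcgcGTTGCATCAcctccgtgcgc
CARS1 (chr11:3057407-3057436, minus strand): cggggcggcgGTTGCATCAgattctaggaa
MARS1 (chr12:57488053-57488082, plus strand): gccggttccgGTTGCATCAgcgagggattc
AARS1 (chr16:70289675-70289704, minus strand): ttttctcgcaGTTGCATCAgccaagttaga
NARS1 (chr18:57621803-57621832, minus strand): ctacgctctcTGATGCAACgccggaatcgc

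Of these 7 genes, 6 fell and CARS1 rose, where 17 of all 21 cytosolic genes fell and 3 rose. The call of CARS1 was lost under several alternatives, among them scaling by the total count (adjusted p = 0.658 in edgeR's test). A link between the element and direction was not tested. FARSB and FARSA held no match in these windows, which says only that these letters were absent there. The interferon-stimulated response element was matched in WARS1 and EARS2 (1 of 16 cytosolic, 1 of 14 mitochondrial and 0 of 3 scaffold genes, against 4.38% of all genes). It is shown for WARS1, on the gene's own strand, because of that gene's known response to interferon.
WARS1 (chr14:100375383-100375412, minus strand): tttcagaaggGAAACTGAAAgaaagagggg
TTCNNNGAA, bound by STAT factors, was held by 5 of the 33 genes (9.38% of all genes), and CACGTG, the E-box bound by MYC among others, by 5 (8.77%). The motif of NRF1, a regulator of nuclear genes for mitochondria, was held by 7 (6.98%). These were 3 of 16 cytosolic, 3 of 14 mitochondrial and 1 of 3 scaffold genes. Matches to different motifs may overlap. A match is a description of the sequence and shows neither binding nor a cause.

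Genes around tRNA charging were lower as well, in lists chosen with earlier results of these data known. Of 21 partners of the synthetases, 14 fell and 1 rose, where 29.2% of all tested genes fell and 29.2% rose, and the median log2 fold change was −0.53, against −0.01 over all tested genes. Of tested genes with counts from FARS2 upwards 35.7% fell and 35.0% rose, and some partners, such as PSTK, lie below those counts. The partners that fell included QRSL1, GATB and GATC, the 3 subunits of the enzyme that completes glutaminyl-tRNA in the mitochondrion, which has no glutaminyl synthetase of its own. QRSL1 had 1025, 1053 and 1109 with siControl against 496, 499 and 527 with siPVT1 (log2 fold change −1.07, standard error 0.068, adjusted p = 9.93e-06), and EARS2, which charges the tRNA in the step before, fell too (log2 fold change −0.65, standard error 0.128, adjusted p = 0.00294). DTD2, which clears wrongly charged tRNA, fell (log2 fold change −1.37, standard error 0.111, adjusted p = 2.88e-05), as did PSTK of the selenocysteine route (log2 fold change −1.26, standard error 0.161, adjusted p = 0.000291). Chosen for their roles after the values were seen, XPOT, which exports tRNA from the nucleus (log2 fold change −0.64, standard error 0.068, adjusted p = 0.000118), and TRNT1, which adds the CCA end (log2 fold change −0.95, standard error 0.155, adjusted p = 0.00105), fell too. SEPSECS, the last enzyme of the selenocysteine route, was the 1 that rose (log2 fold change 0.28, standard error 0.085, adjusted p = 0.0239).

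Of 23 genes of RNA polymerase III and its factors, which make tRNA, 17 fell and 0 rose at an adjusted p under 0.05 in edgeR's test (median −0.46), beside 29.2% in each direction over all tested genes. The polymerase subunits POLR3C (log2 fold change −1.37, standard error 0.099, adjusted p = 1.71e-05) and POLR1C (log2 fold change −1.07, standard error 0.10, adjusted p = 5.98e-05) fell past both thresholds. Elongation and termination factors were mixed, with 8 of 18 lower and 2 higher (median −0.19), beside the same 29.2% in each direction. Also named after the values were seen, GFM1, the mitochondrial elongation factor G, fell (log2 fold change −0.94, standard error 0.149, adjusted p = 0.000934), the cytosolic EEF2 fell slightly (log2 fold change −0.31, standard error 0.054, adjusted p = 0.00144). EEF1A2, a low-abundance form of elongation factor 1, rose past both thresholds (log2 fold change 3.21, standard error 0.255, adjusted p = 2.66e-05). Of 28 genes of the amino acid response 27 were tested, and 21 fell and 1 rose (29.2% of all tested genes in each direction). Past both thresholds 15 fell and 1 rose (9.86% and 11.6% of all tested genes), and the median was −1.04.

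ATF4 itself had 15622, 14605 and 15853 with siControl against 10318, 11067 and 11962 with siPVT1 (log2 fold change −0.47, standard error 0.068, adjusted p = 0.000612). The median was −0.49 for the cytosolic synthetases, −0.47 for all 41 genes and −0.46 for the RNA polymerase III genes. A link between ATF4 and these changes was not tested. Larger differences were measured for 3 known targets of ATF4, while 5 of the 27 tested amino acid response genes did not pass. TRIB3, a pseudokinase, had 1925, 1885 and 1914 with siControl against 490.1, 487 and 490.4 with siPVT1 (log2 fold change −1.96, standard error 0.058, adjusted p = 6.28e-07), ASNS, which makes asparagine, had 4268, 4223 and 4378 with siControl against 1369.6, 1285 and 787 with siPVT1 (log2 fold change −1.91, standard error 0.183, adjusted p = 6.71e-05), and DDIT3, the stress factor CHOP, had 945, 866 and 945 with siControl against 470.2, 485 and 389.7 with siPVT1 (log2 fold change −1.04, standard error 0.098, adjusted p = 6.24e-05). For ASNS and DDIT3 siPVT1 replicate 3 was the lowest library, the reverse of its place in most synthetase genes. DDIT3 overlaps MARS1 in exons on the opposite strand. Of the amino acid response genes, the glycine transporter SLC6A9 had the lowest value (log2 fold change −5.51, standard error 0.169, adjusted p = 6.97e-07), SLC7A11, the cystine transporter, fell next (log2 fold change −3.31, standard error 0.128, adjusted p = 1.35e-06), and VLDLR was the 1 gene that rose (log2 fold change 2.09, standard error 0.094, adjusted p = 2.17e-06). MYC fell as well (log2 fold change −1.03, standard error 0.049, adjusted p = 2.74e-06).

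Exons of 41 genes were compared with those of other genes. In 23 of them an exon overlaps one of a gene on the opposite strand, among them AIMP2 with EIF2AK1 and HARS1 with HARS2, and since the strand setting of the counting is not given in the sources used here, reads of such partners could have been shared. Scaling by the total count in place of TMM moved the median of all tested genes from −0.01 to −0.15. With it the medians were −0.63 for cytosolic and −0.49 for mitochondrial enzymes, SARS2 and VARS2 turned to values below 0 without passing the test, and CARS1 and NARS2 no longer passed as higher (adjusted p = 0.658 and 0.096).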

How the data were processed

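The authors aligned single-end reads of mRNA libraries to the GENCODE transcriptome of GRCh38 with STAR and counted them with Salmon (versions 2.7.3a and 0.14.1 in the submitters' processing notes). The deposited table holds these estimated counts, rounded and not normalised, 1 row per symbol. Salmon divides reads between similar transcripts, so close paralogs such as TARS1 and TARS3 are uncertain.

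Groups came from the sample titles. edgeR 4.0.16 (R 4.3.3) with TMM and its quasi-likelihood test compared siPVT1 with siControl over all 19008 genes, with no block. Thresholds were an adjusted p of 0.05 and a log2 fold change of 1, with the adjusted p alone beside them. "Rose" and "fell" mean an adjusted p under 0.05. The standard error of a log2 fold change was taken as its size over the root of the F statistic. Alternatives were DESeq2 1.42.0, other scaling and filters, the replicate block, a test against a 2-fold change and leaving out each library.

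The fit was tested on simulated data. A first criterion on recovery at any expression level was not met, because many changed genes of low count were missed. The criterion was then restricted to genes with counts well above the filter, where recovery was nearly complete, and false calls ran above the nominal rate in some simulations. All 41 synthetase and scaffold genes have counts in that range, but a few genes of the other lists, such as PSTK and EEF1A2, are below it. The range concerns counts only. Recovery at the fold changes measured for the 41 genes was not tested. This change of criterion was made after the first simulation was seen.

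Transcript lengths, coordinates and overlaps came from GENCODE v44 on GRCh38, the same build as the authors' v35. Members and lists were chosen with earlier results of these data known. Values by library were given for the 8 cytosolic and 5 mitochondrial genes with the smallest p, scaffolds, genes against the majority direction and the smallest change in each compartment. From each list up to 3 genes past both thresholds in each direction, plus ATF4, DDIT3, ASNS, TRIB3 and MYC, were to be named, some of them with values by library. Genes added later are named as such. Protein sequences were not used here. A few members and list genes are counted in the totals but not reported here singly, and are left out of the figures.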

Additional observations from a re-analysis of the deposited data

How the results depend on the processing

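The direction of both medians and most single calls did not depend on the processing. Of 492 values of single genes under alternatives, 465 kept direction and side of the threshold, 14 lost and 9 gained the call, and 4 turned sign without passing in either setting: VARS2 to −0.092 and SARS2 to −0.053 with scaling by the total count, and VARS2 to −0.0032 without siControl replicate 1 and −0.028 without siPVT1 replicate 3, in a range up to 0.105 without 1 library. Counts past both thresholds are small and move easily. Against 1 cytosolic and 1 mitochondrial gene lower, scaling by the total count gave 3 and 2, testing for more than a 2-fold change 0 and 0, and calling by adjusted p alone 17 and 9, with 3 and 2 higher in place of 0 and 0. Leaving out 1 library gave 1 to 2 cytosolic and 0 to 2 mitochondrial genes lower. At the adjusted p alone, mitochondrial genes higher ranged from 1 to 3 without 1 library and were 1 with scaling by the total count, which also moved the medians to −0.63 (cytosolic) and −0.49 (mitochondrial). Mitochondrial genes lower at the adjusted p alone ranged from 8 to 11 without 1 library and were 12 with that scaling. Over all genes, 4076 passed both thresholds, 1957 the test for more than a 2-fold change, and 11099 had an adjusted p under 0.05. With scaling by the total count 43.8% of genes past both thresholds were higher, against 54.0%. Pairs without overlap were 13 without any 1 library except siPVT1 replicate 3, without which they were 16. With the replicate number as a block, 30 genes fell and 4 rose, 3919 of all genes passed both thresholds, and CARS1 lost its call (adjusted p = 0.0762). Same-numbered libraries did not deviate together, with correlations of −0.06, 0.08 and 0.02, so the numbers were not taken to pair them. The causes of these changes were not tested.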
